A study of Mus musculus with 26 samples.

Results

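The 39 Hox genes of the mouse were examined in haematopoietic stem cells (HSCs), the self-renewing bone marrow cells from which all blood lineages arise. They were chosen by name only, as all rows of the expression table whose symbol is Hox followed by a cluster letter (a to d) and a number, with no filter on level, which gave 39 of 23416 genes. RNA of HSCs sorted by flow cytometry from bone marrow was made into 26 Smart-Seq2 libraries, a protocol that copies whole transcripts from few cells. The groups were control (labelled CTR and WT, n = 5), JAK2V617F, an activating kinase mutation of myeloproliferative neoplasms (labelled JMV, n = 7), Ezh2 loss (labelled EMV, n = 7) and a double mutant (labelled JEMV, n = 7), whose genotype the labels spell JAK2V17F with Ezh2 loss and which was read as JAK2V617F. The Ezh2 allele, the JAK2 transgene or knock-in, the promoter of any Cre driver, and the age, sex and strain of the mice were not stated in any source used here. Nothing in the labels says that libraries of a group came from separate animals, so every p-value below measures only the spread between these libraries. The library titles come in 2 styles, with the number before the group code (number-first, 15 libraries) or after it (number-last, 11 libraries), and no label says what the style stands for. Number-first titles make up 4 of 5 control, 2 of 7 JAK2V617F, 2 of 7 Ezh2 loss and 7 of 7 double-mutant libraries.

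Hox genes encode homeodomain transcription factors that lie side by side in 4 clusters (HoxA to HoxD), and genes of the same number in different clusters are paralogues. In the embryo the low numbers act early and towards the head, and the high numbers late and towards the tail. Ezh2 is the catalytic subunit of Polycomb repressive complex PRC2, which puts the repressive methyl mark of histone H3 on silent Hox genes, whereas complexes built on Kmt2a (MLL) keep them active. In blood, Hoxa9 and Hoxb4 are known for driving self-renewal of HSCs, Hoxb5 is known as a marker of long-term HSCs, and Hox proteins bind DNA together with cofactors such as Meis1.

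The 250 bases upstream of the start site are shown for 4 genes, a pair that had reads in all or most libraries (Hoxa9, Hoxb4) and a pair that had 0 in every library (Hoxa13, Hoxd4), because CpG-rich start sites are where Polycomb complexes are known to bind. All are from RefSeq on GRCm38.p6 and run 5′ to 3′ on the gene's strand, with each CG dinucleotide in capitals. They lie at chr6:52227371-52227620, minus strand (Hoxa9), chr6:52260881-52261130, minus strand (Hoxa13), chr11:96318017-96318266, plus strand (Hoxb4) and chr2:74721728-74721977, plus strand (Hoxd4).
Hoxa9: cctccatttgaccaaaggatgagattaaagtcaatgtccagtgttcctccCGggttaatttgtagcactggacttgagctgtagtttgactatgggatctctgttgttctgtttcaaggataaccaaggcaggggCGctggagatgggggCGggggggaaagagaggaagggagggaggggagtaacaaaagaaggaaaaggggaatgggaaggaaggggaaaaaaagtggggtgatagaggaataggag
Hoxa13: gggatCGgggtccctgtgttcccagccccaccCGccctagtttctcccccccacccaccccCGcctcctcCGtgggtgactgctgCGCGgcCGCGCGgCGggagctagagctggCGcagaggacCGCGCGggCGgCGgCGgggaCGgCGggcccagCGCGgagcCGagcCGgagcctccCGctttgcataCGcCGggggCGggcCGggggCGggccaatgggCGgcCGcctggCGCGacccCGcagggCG
Hoxb4: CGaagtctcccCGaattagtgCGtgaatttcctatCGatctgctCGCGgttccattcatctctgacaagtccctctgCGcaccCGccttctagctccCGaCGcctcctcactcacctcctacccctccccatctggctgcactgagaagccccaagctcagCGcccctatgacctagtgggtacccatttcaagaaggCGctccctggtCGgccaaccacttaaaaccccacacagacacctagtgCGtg
Hoxd4: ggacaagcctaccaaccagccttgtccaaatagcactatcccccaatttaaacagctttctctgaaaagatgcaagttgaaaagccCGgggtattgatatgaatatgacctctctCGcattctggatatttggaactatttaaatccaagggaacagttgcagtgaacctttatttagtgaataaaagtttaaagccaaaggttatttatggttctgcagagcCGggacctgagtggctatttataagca
The stretch of Hoxa9 holds 3 CG dinucleotides and that of Hoxb4 holds 14, against 35 for Hoxa13 and 3 for Hoxd4. CpG content therefore did not sort the silent from the expressed genes in these 4. The same held for the wider set. RefSeq promoter windows of 300 bases (250 before to 50 after the start) were at hand for 22 of the 39 genes, 24 windows in all. Their CG count had a median of 14 in genes that are on (4 to 29, 9 windows), 11.5 in scattered genes (9 to 29, 4 windows) and 20 in silent genes (4 to 45, 11 windows), against 7 over all 32841 promoter windows, where these 3 classes are defined with the levels below. The ranges of the 3 classes overlapped. Letters of the MEIS motif (TGACAG, either strand) stood in 2 of 9 windows of on genes, 0 of 4 of scattered and 0 of 11 of silent genes, against 19.2% of all promoters.

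Of 6 microRNA genes of the clusters that had a row, Mir196b alone was on, and it is shown with Mir10b, which was at 0 in all libraries. The mature sequences are given from RefSeq, with the seed (bases 2 to 8) in capitals. In GENCODE M21, Mir196b lies within the Hoxa9 gene at chr6:52230129-52230150 (minus strand, mature sequence), and Mir10b lies within the Hoxd4 gene at chr2:74726074-74726096 (plus strand).
mmu-miR-196b-5p: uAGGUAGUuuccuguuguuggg
mmu-miR-10b-5p: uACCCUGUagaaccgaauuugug
The seeds differ. The gene row of Mir196b was above 0 in 23 of 26 libraries, with a mean of 15.4 RPKM over all 26. The rows of Mir10b, Mir196a-1, Mir196a-2 and Mir615 were at 0 in all 26, and that of Mir10a was above 0 in 1 (mean of 0.0541 RPKM). These rows count reads on the hairpin's exon, not the mature microRNA. In GENCODE M21, 85 exonic bases of Mir196b are shared with Hoxa9 on the same strand. The counts used another annotation with a shorter Hoxa9, so whether the rows of Mir196b and Hoxa9 share reads is not known.

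Levels are RPKM, reads scaled to gene length and to the library's read total. Read totals, estimated from the steps between low RPKM values, ran from 7.82 to 29.2 M (mega-reads) per library. The mean was 17.5 M for control, 13.5 M for JAK2V617F, 14 M for Ezh2 loss and 21.1 M for the double mutant, and 19.9 ± 3.62 M (SD, n = 15) for number-first against 11.8 ± 3.34 M (n = 11) for number-last titles. All 12 HSC marker genes of a fixed list (Procr, Mecom, Fgd5 and others) were on. Summed RPKM of 10 neutrophil markers ran from 43.5 to 388 in control. It reached 17655 in JAK2V617F, 38184 in Ezh2 loss and 52098 among double mutants. The sum over 9 erythroid marker names reached 11883 in Ezh2 loss against 84.1 or less in the other groups. Its median was 1944 in Ezh2 loss, 41.3 in control, 20.2 in JAK2V617F and 33.4 among double mutants. Among these names 2 share the row Beta-s, which therefore counts 2 times in the sum. Of other cell types, 2 of 7 B cell, 3 of 7 T and NK cell, 1 of 6 mast cell and basophil and 4 of 9 stromal and endothelial markers were on. The part of these cells or their RNA in any Hox value was not tested. In such bulk libraries fewer cells that express a gene and less RNA per cell cannot be told apart.

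The targeted gene did not separate the groups. Ezh2 RNA stood at 23.7 ± 10.4 RPKM (SD, n = 5) for control and 27.1 ± 8.21 for JAK2V617F, against 17.6 ± 9.0 for Ezh2 loss and 17.4 ± 9.07 for the double mutant (n = 7 each), and the groups overlapped. Ezh2 loss against control gave -0.43 on the log2 scale (SE 0.41, limma adjusted p = 0.792). Jak2 RNA stood at 16.2 ± 4.71 RPKM for control and 12.8 ± 5.71 for JAK2V617F, and does not tell the mutant allele from the normal one. A gene-level value does not show whether part of the transcript is missing, so Ezh2 checks no label here, and "Ezh2 loss" is the labels' word throughout.

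Most of the Hox repertoire of HSCs lay in HoxA and HoxB, outside numbers 11 to 13. Nearly all of HoxD was without a read. A gene is called on when 5 or more of the 26 libraries (the size of the smallest group) reach an RPKM of 1, scattered when above 0 in some library but not on, and silent at 0 in all. Of the 39 genes, 15 were on, 10 were scattered and 14 were silent, against 12116, 5143 and 6157 of all 23416 genes (51.7%, 22% and 26.3%). In HoxA 8 of 11 genes were on, in HoxB 6 of 10, in HoxC 1 of 9 and in HoxD 0 of 9. By number, 4 of 8 genes numbered 1 to 3 were on, 8 of 15 numbered 4 to 8, 3 of 7 numbered 9 or 10 and 0 of 9 numbered 11 to 13. All 9 genes numbered 11 to 13, which pattern limbs, genital and tail regions in the embryo, were silent. On GRCm38 (GENCODE M21) the clusters span chr6:52155590-52260880 (HoxA), chr11:96194316-96368256 (HoxB), chr15:102921103-103036852 (HoxC) and chr2:74668310-74765142 (HoxD), measured over the member genes.

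**Figure D1:**
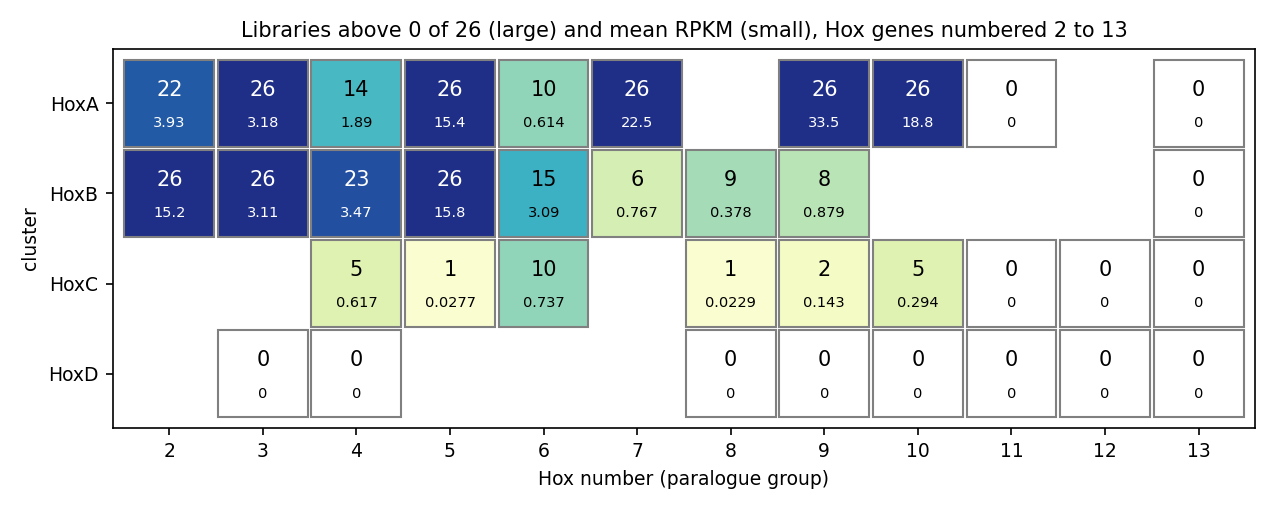
Each box is 1 Hox gene numbered 2 or above, placed by cluster (rows) and number (columns), with the number of libraries above 0 RPKM of 26 (large figure and shade) and the mean RPKM over the 26 libraries (small figure). Counts of 22 to 26 fill numbers 2, 3, 5, 7, 9 and 10 of HoxA and 2 to 5 of HoxB, while columns 11 to 13 and the HoxD row stand at 0.

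A set of 6 genes carried most of the signal: Hoxa9, Hoxa7, Hoxa10, Hoxb5, Hoxa5 and Hoxb2, with means over all 26 libraries of 33.5, 22.5, 18.8, 15.8, 15.4 and 15.2 RPKM. The seventh gene, Hoxa2, was at 3.93. Together the 6 made up 69.4% to 92.8% of the summed Hox RPKM of a library (median 83.4%). Hoxa9 was the highest Hox gene in 14 libraries, Hoxa7 in 4, Hoxb2 in 3, Hoxa5 and Hoxb5 in 2 each and Hoxa10 in 1, so the order within the set was not fixed. HoxA as a whole held a median of 67.8% of the summed Hox RPKM (47.7% to 86.2%). A total of 8 genes were above 0 in all 26 libraries: Hoxa3, Hoxa5, Hoxa7, Hoxa9, Hoxa10, Hoxb2, Hoxb3 and Hoxb5. Paralogues differed in level: of number 9, Hoxa9 was at 33.5, Hoxb9 at 0.879 and Hoxc9 at 0.143 RPKM, and of number 7, Hoxa7 was at 22.5 and Hoxb7 at 0.767. For number 2 the order turned, with Hoxb2 at 15.2 and Hoxa2 at 3.93, and for number 5 Hoxa5 and Hoxb5 differed by less than their spread between libraries.

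In HoxA, Hoxa9 was the most abundant gene, and all groups overlapped. Its control libraries were at 28, 22.3, 30.3, 37 and 59.2 RPKM. By group, the lowest, median and highest libraries were 21.4, 41.6 and 60.5 with JAK2V617F, 13.7, 23.8 and 38 with Ezh2 loss and 21.8, 30.8 and 47.5 in double-mutant libraries. Ezh2 loss libraries lay lowest on average, at 25.8 ± 9.21 RPKM (SD, n = 7) against 35.4 ± 14.3 in control (n = 5), a log2 fold change (of RPKM + 1, as all below) of -0.44 (SE 0.31, limma adjusted p = 0.709). Hoxa10, its neighbour and another factor of blood progenitors, was at 24.9, 10.9, 12.5, 27.5 and 22.6 in control. The mutant groups had lowest, median and highest values of 3.28, 11.8 and 24.3 with JAK2V617F, 9.82, 20.7 and 24.8 with Ezh2 loss and 12.7, 24.7 and 36 in double-mutant libraries. JAK2V617F libraries were low and double-mutant libraries high for Hoxa10, with means of 12.7 ± 6.76 and 24.1 ± 7.52, and still overlapped.

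Hoxa7, also active in blood progenitors, was at 23, 14.1, 28.4, 12.3 and 22.6 RPKM in control. Mutant libraries had lowest, median and highest values of 9.01, 26.3 and 46.4 with JAK2V617F, 8.94, 18.4 and 50.7 with Ezh2 loss and 11, 19.6 and 31.9 in double-mutant libraries. The spread within each group exceeded any difference between group means of Hoxa7. Hoxa5, a factor best known from lung and axial patterning, was at 9.83, 14.1, 26.9, 28.9 and 8.57 in control. In the mutant libraries the lowest, median and highest were 10.7, 22.1 and 36.7 with JAK2V617F, 4.51, 11.7 and 22.8 with Ezh2 loss and 2.33, 6.43 and 43.3 in double-mutant libraries. Among double-mutant libraries 1 stood at 43.3 and the other 6 at 9.66 or less, below every JAK2V617F library. Hoxa6 lies between these genes and was far lower, above 0 in 10 libraries, with control values of 0, 0.812, 3.25, 0 and 0, and lowest, median and highest values of 0, 0 and 4.81 with JAK2V617F, 0, 0 and 1.1 with Ezh2 loss and 0, 0 and 1.55 in double-mutant libraries.

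The lower-numbered HoxA genes, which pattern hindbrain and neck, were present at a few RPKM. Hoxa2 was at 2.88, 2.12, 1.44, 6.5 and 7.86 in control. For the other groups the lowest, median and highest were 0, 4.6 and 5.41 with JAK2V617F, 0, 5.23 and 13.9 with Ezh2 loss and 0, 3.75 and 6.87 in double-mutant libraries. Hoxa2 was at 0 in 4 libraries, 1 with JAK2V617F, 2 with Ezh2 loss and 1 double-mutant. Hoxa3 was above 0 in every library. It stood at 1.83, 2.41, 2.66, 7.05 and 1.65 in control, and lowest, median and highest at 0.0486, 2.51 and 4.5 with JAK2V617F, 0.0865, 2.59 and 13.2 with Ezh2 loss and 0.703, 1.73 and 6.76 in double-mutant libraries. Hoxa4 was above 0 in 14 libraries, 4 of 5 in control and 3 of 7, 3 of 7 and 4 of 7 in the mutant groups. Control values of Hoxa4 were 4.81, 2.5, 4.65, 2.97 and 0. Across the mutant groups the low, middle and top libraries were 0, 0 and 5.51 with JAK2V617F, 0, 0 and 7.52 with Ezh2 loss and 0, 0.672 and 3.95 in double-mutant libraries. Groups overlapped for Hoxa2, Hoxa3 and Hoxa4. Hoxa11 and Hoxa13 were silent.

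HoxB was led by Hoxb5 and Hoxb2. Hoxb5, the long-term HSC marker, was at 36.4, 17, 20.2, 22 and 10.3 RPKM in control. By group, the lowest, median and highest libraries were 6.12, 11 and 23.6 with JAK2V617F, 0.754, 13.4 and 33 with Ezh2 loss and 8.01, 18.8 and 21.3 in double-mutant libraries. Its lowest 2 values were both in Ezh2 loss libraries, and control overlapped every mutant group. Hoxb2, known from hindbrain patterning, was at 11.4, 26.3, 35.1, 16.6 and 10.8 in control. The mutant groups had lowest, median and highest values of 2.54, 8.28 and 26.2 with JAK2V617F, 0.675, 16.6 and 25.1 with Ezh2 loss and 11.6, 16.2 and 29 in double-mutant libraries. Double-mutant libraries of Hoxb2 kept to the narrowest range, and all groups overlapped. Hoxb4, which expands HSCs when forced, was near a few RPKM in each group. Its control values were 2.49, 5.29, 5.43, 1.64 and 0, the last of them the only number-last control library. Mutant libraries had lowest, median and highest values of 1.73, 2.86 and 12.9 with JAK2V617F, 0.659, 1.07 and 7.85 with Ezh2 loss and 0, 1.93 and 7.65 in double-mutant libraries. Hoxb4 was above 0 in all JAK2V617F and Ezh2 loss libraries, in 4 of 5 control and in 5 of 7 double-mutant libraries.

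Hoxb3, a close partner of Hoxb4 in blood, was at 2.5, 3.91, 1.71, 3.74 and 4.88 RPKM in control, with lowest, median and highest values of 0.852, 1.97 and 3.74 with JAK2V617F, 0.62, 3.29 and 13 with Ezh2 loss and 0.178, 2.56 and 4.63 in double-mutant libraries. The groups of Hoxb3 overlapped. Hoxb6 was at 4.43, 3.94, 2.88, 5.31 and 0 in control and above 0 in 3 of 7, 3 of 7 and 5 of 7 libraries of the mutant groups. Lowest, median and highest for Hoxb6 were 0, 0 and 11 with JAK2V617F, 0, 0 and 4.31 with Ezh2 loss and 0, 5.84 and 13.4 in double-mutant libraries. Hoxb9, the last on gene of the cluster, was at 0, 0, 0, 2.89 and 0 in control. In the mutant libraries the lowest, median and highest were 0, 0 and 4.97 with JAK2V617F, 0, 0 and 1.15 with Ezh2 loss and 0, 2.07 and 5.72 in double-mutant libraries. Most libraries of each group but the double mutant were at 0 for Hoxb9. Of the scattered genes, Hoxb8, a progenitor factor, was above 0 in 9 libraries (up to 2.0 RPKM), Hoxb7 in 6 (up to 7.08) and Hoxb1 in 3 (up to 8.43). Hoxb13, which lies apart from the rest of the cluster, was silent.

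Only Hoxc6 was on in HoxC. It stood at 0, 2.62, 2.29, 1.69 and 0 RPKM in control and at 0 in all 7 JAK2V617F libraries. Lowest, median and highest were 0, 0 and 3.86 with Ezh2 loss and 0, 0.0364 and 2.46 in double-mutant libraries. Control overlapped JAK2V617F at 0. Hoxc4 and Hoxc10 were each above 0 in 5 libraries, at up to 8.53 and 3.13 RPKM, and any HoxC gene was above 0 in 4 of 5 control, 1 of 7 JAK2V617F, 4 of 7 Ezh2 loss and 6 of 7 double-mutant libraries. Hoxc5, Hoxc8 and Hoxc9 had reads in 1, 1 and 2 libraries, and Hoxc11, Hoxc12 and Hoxc13 in none. In HoxD, Hoxd1 was above 0 in 1 library (0.0216 RPKM, 1 read at its GENCODE length), and Hoxd3, Hoxd4 and Hoxd8 to Hoxd13 were silent.

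**Figure D2:**
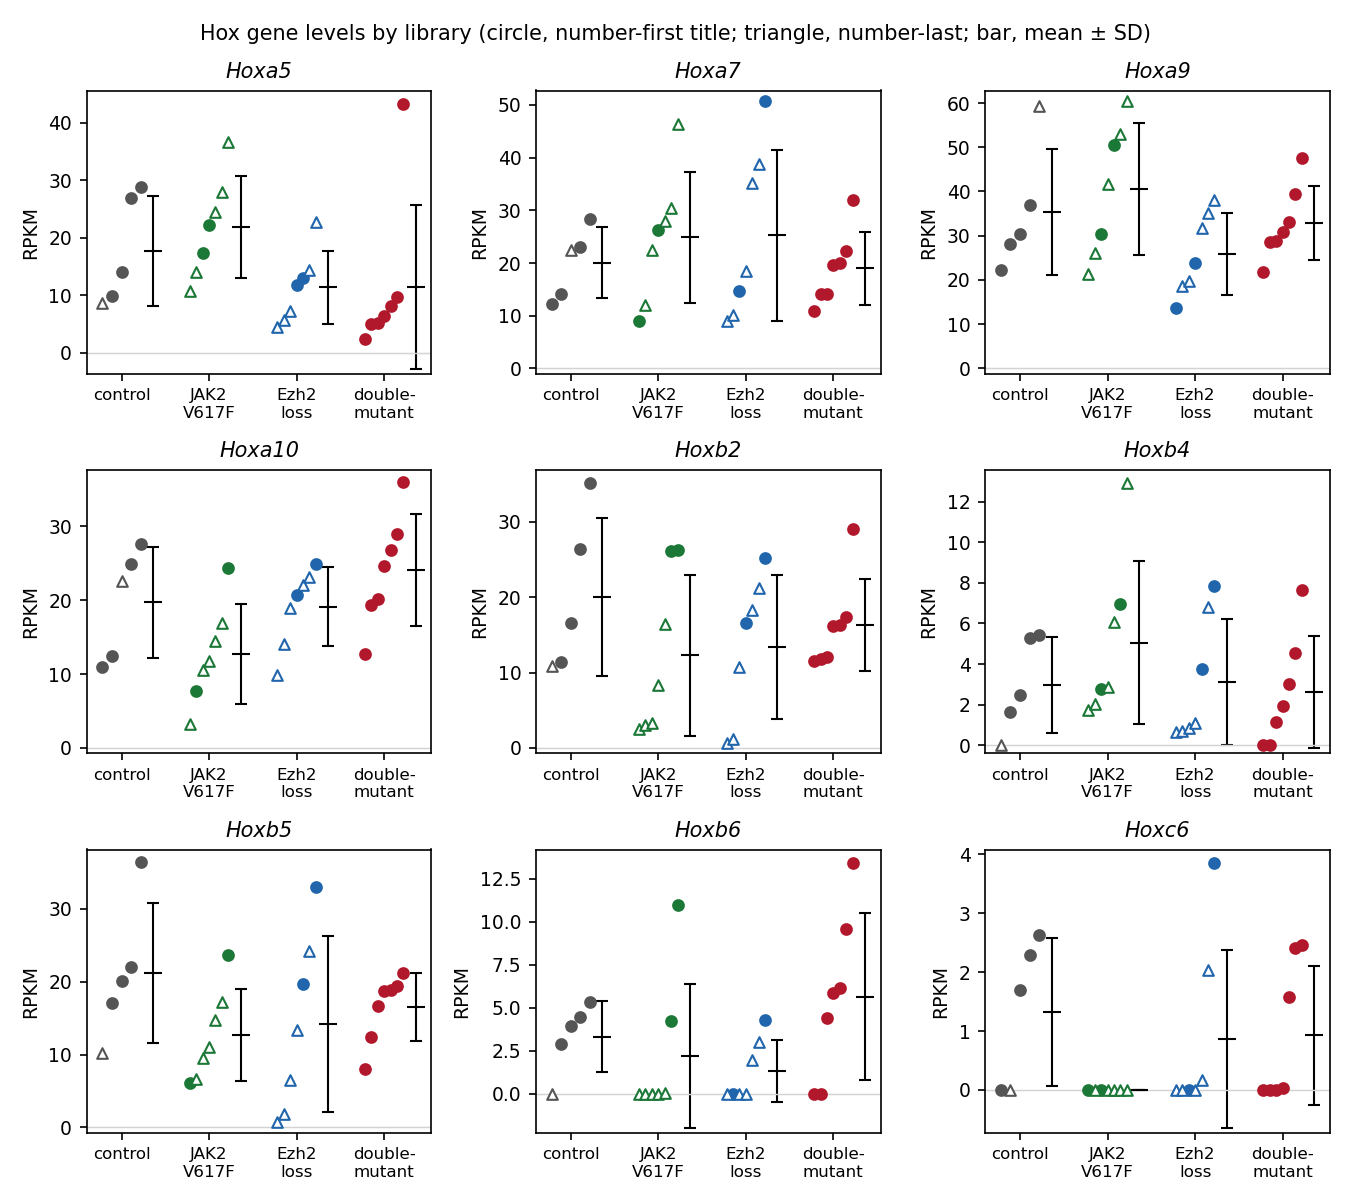
RPKM of 9 Hox genes in each library (1 point each) by genotype group, with filled circles for number-first and open triangles for number-last titles, and a bar for the group's mean ± SD (n = 5, 7, 7 and 7). The groups overlap for each gene, and most points at or near 0 for Hoxb6 are triangles.

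For 21 members the RPKM values were whole multiples of 1 read within 0.001 of a read, so read counts could be recovered. Genes that are on had a median of 240.5 reads in the 310 of 390 values above 0, and the other 80 values were 0. The 6 scattered genes among these had a median of 83 reads in 33 values above 0, and 26 of those 33 rested on at least 10 reads. These 6 genes were thus mostly either at 0 or well above 1 read within a library. For the other 4 scattered genes reads could not be recovered in this way. For the 14 silent genes at their GENCODE M21 lengths, 3 reads would be worth 0.0244 to 0.372 RPKM, depending on the gene and the library. Over all libraries together they would be worth 0.0068 RPKM or less, so a level below that could be missed. The counts used other gene lengths, which are not known for these genes, so the true limits can be higher or lower. These limits cover counting error only, since Smart-Seq2 reads carry no molecular identifiers.

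Whether loss of Ezh2 opens silent Hox genes was read from the libraries above 0. Of the 39 genes, 4 had reads only in libraries with Ezh2 loss (Ezh2 loss or double-mutant, 14 libraries): Hoxc5, Hoxc8, Hoxc9 and Hoxd1. Over all 23416 genes this was so for 8.01%, so 4 of 39 is near the background. No member had reads only in the 12 libraries with intact Ezh2 (control and JAK2V617F), against 3.99% of all genes. Hoxc5 was at 0.720 RPKM in Ezh2 loss library 3, Hoxc8 at 0.594 in double-mutant library 3, and Hoxc9 at 1.80 and 1.92 in double-mutant libraries 2 and 5, each between 31.7 and 107 reads if the counted gene has its GENCODE length. All 5 values, Hoxd1 included, came from number-first libraries, which make up 9 of 14 libraries with Ezh2 loss and 6 of 12 without.

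No member passed a test of detection. A two-sided Fisher exact test of libraries above 0, Ezh2 loss against intact, was run per gene above 0 in 2 to 24 libraries and adjusted by Benjamini-Hochberg over 7310 genes. Of the 14 Hox genes tested, 0 passed at adjusted p under 0.05 and 0 at unadjusted p under 0.05, where 0.0137% and 3.08% of all genes did. The only gene of all that passed was Gh, the pituitary growth hormone, named here after its values were seen: it was above 0 in 14 of 14 libraries with Ezh2 loss and in 0 of 12 without (adjusted exact p = 0.000757, mean of 0.567 RPKM over all libraries). A call was thus possible for a complete split, and whether a smaller split could pass was not tested. Hoxc5, Hoxc8, Hoxd1 and the silent genes were above 0 in fewer than 2 libraries and did not enter the test. For Ezh2 loss against control alone, 0 of 11 Hox genes tested passed at adjusted p under 0.05. At unadjusted p under 0.05 there were 2, against 163 of all 5121 genes tested. Of these 2, Hoxc10 was above 0 in 0 of 7 Ezh2 loss and 3 of 5 control libraries (exact unadjusted p = 0.0455, adjusted p = 1). The 3 control values of Hoxc10 rested on 116, 13 and 1 reads. The 14 silent genes, among them Hoxa13, Hoxc13 and Hoxd13, were at 0 in all 14 libraries with Ezh2 loss as in all 12 without.

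All 15 on genes, and no other member, entered the limma test of levels, which took the 12116 genes that are on by that rule and adjusted p over all of them. A gene that is on only in some libraries, such as Hoxc6 or Hoxb9, enters through those libraries. With Ezh2 loss against control, 0 of 15 passed at adjusted p under 0.05 (background 0%) and 0 at unadjusted p under 0.05 (background 8.32%). The fold change was below 0 in 13 of 15, with a median of -0.35, and above 0 in 2. Over all genes 59% were below 0 and 40.9% above, with a median of -0.12. The lowest were Hoxb5 at -1.05 (SE 0.56, limma adjusted p = 0.617), Hoxb6 at -1.02 and Hoxb2 at -0.97. With the naming style as a covariate 9 of 15 were below 0, and Hoxb5 moved to -0.51, Hoxb6 to -0.06 and Hoxb2 to -0.13. The 95% intervals were wide: that of Hoxa9 ran from -1.08 to 0.2, that of Hoxb4 from -1.29 to 1.25 and that of Hoxb6 from -2.54 to 0.51, so changes of such sizes could be missed.

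Averaging the effect of Ezh2 loss over both JAK2 backgrounds gave 0 of 15 at adjusted p under 0.05 (background 0.0413%) and 1 at unadjusted p under 0.05 (background 7.82%). The effect was below 0 in 10 of 15 (all genes 48.3%) and above 0 in 5 (all genes 51.7%). The 1 gene was Hoxa5, at -0.94 (SE 0.34, limma adjusted p = 0.469), with means of 11.4 ± 6.31 and 11.4 ± 14.3 RPKM with Ezh2 loss against 17.6 ± 9.58 and 21.9 ± 8.85 without. With the style covariate the value of Hoxa5 was -0.98 (adjusted p = 0.368). For the other 14 the interval of the averaged effect included 0. It ran from -0.77 to 0.09 for Hoxa9, -0.67 to 0.51 for Hoxa7, -1.32 to 0.4 for Hoxb4 and -1.09 to 0.46 for Hoxb5.

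In double-mutant against JAK2V617F libraries, 0 of 15 passed at adjusted p under 0.05 (background 2.26%) and 2 at unadjusted p under 0.05 (background 17.9%). Values were above 0 in 8 of 15 (all genes 58.8%) and below 0 in 7 (all genes 41.2%). The 2 genes had opposite signs, Hoxa5 at -1.29 (SE 0.46, limma adjusted p = 0.122) and Hoxa10 at 0.99 (SE 0.35, limma adjusted p = 0.122). Each turned into a call without 1 library: Hoxa5 without double-mutant library 6, its high value (-1.68, adjusted p = 0.0369), and Hoxa10 without JAK2V617F library 3 (1.17, adjusted p = 0.0464). All double-mutant and 2 of 7 JAK2V617F libraries are number-first, and with style as a covariate Hoxa5 was at -1.53 (adjusted p = 0.408) and Hoxa10 at 0.81 (adjusted p = 0.647).

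**Figure D3:**
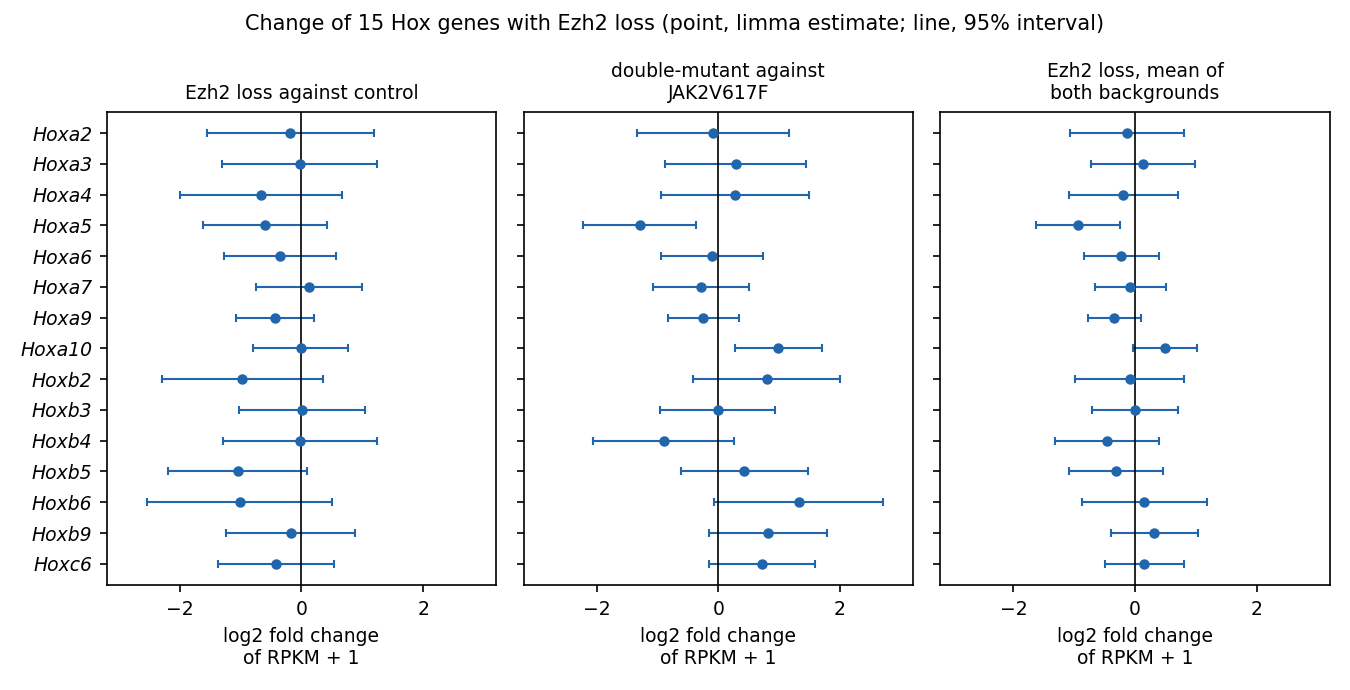
Log2 fold change of RPKM + 1 (points, horizontal axis) with its 95% interval (lines) for the 15 tested Hox genes, for Ezh2 loss against control, double-mutant against JAK2V617F and the mean of both. Intervals that leave out 0 are those of Hoxa5 and Hoxa10 in the middle panel and of Hoxa5 in the right panel, and none passes adjustment over all genes.

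JAK2V617F against control gave 0 of 15 at adjusted p under 0.05 (background 0.00825%) and 1 at unadjusted p under 0.05 (background 7.93%), Hoxc6, which was at 0 in all 7 JAK2V617F libraries and had a fold change of -1.0 (SE 0.47, limma adjusted p = 0.615). Values were above 0 in 5 of 15 (all genes 42%) and below 0 in 10 (all genes 57.9%). Number-last titles make up 5 of 7 JAK2V617F and 1 of 5 control libraries. With the style covariate Hoxc6 was at -0.70 (adjusted p = 0.999). The double mutant against control gave 0 of 15 (background 0%) and 0 at unadjusted p (background 4.98%), with 3 values above 0 (all genes 52.8%) and 12 below (all genes 47.2%). Against Ezh2 loss it gave 0 (background 0.702%) and 0 (background 15.1%), with 8 above (all genes 59.9%) and 7 below (all genes 40.1%). The 3 comparisons with control share its 5 libraries. In those with Ezh2 loss, JAK2V617F and the double mutant, Hoxb5 was at -1.05, -0.71 and -0.29, Hoxa9 at -0.44, 0.18 and -0.06, and Hoxb4 at -0.02, 0.65 and -0.25. For the interaction, which asks whether the effects of JAK2V617F and Ezh2 loss add up on the log2 scale, 0 of 15 passed (background 1.77%) and 1 at unadjusted p under 0.05 (background 18.2%), Hoxb6 at 2.34 (SE 1.01, limma adjusted p = 0.208). With the style covariate the interaction of Hoxb6 was 0.05 (adjusted p = 0.995), and in number-first libraries alone it was 0.34. Interaction values were above 0 in 11 of 15 (all genes 60.4%) and below 0 in 4 (all genes 39.6%).

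Between the naming styles 2 Hox genes passed, a share close to that of all genes, and both were in HoxB. Between genotypes 0 of 15 passed, where at most 2.26% of all genes did. With genotype in the same limma fit, 2 of 15 Hox genes passed, against a background of 11%, both higher in number-first libraries, and 3 at unadjusted p under 0.05 (background 23.4%). Differences were above 0 in 11 of 15 (all genes 60.9%) and below 0 in 4 (all genes 39.1%). Hoxb2 was at 19.9 ± 7.49 RPKM in number-first (SD, n = 15) and 8.77 ± 7.33 in number-last libraries (n = 11), with lowest, median and highest values of 11.4, 16.6 and 35.1 and of 0.675, 8.28 and 21.2, a log2 difference of 1.63 (SE 0.49, limma adjusted p = 0.0279). Hoxb6 was at 5.03 ± 3.89 and 0.455 ± 1.03, and above 0 in 12 of 15 and 3 of 11 libraries, a difference of 1.86 (SE 0.58, limma adjusted p = 0.0326). A share of 2 in 15 is close to that background. Both styles overlapped for Hoxb2 and Hoxb6. Inside JAK2V617F, the 2 number-first libraries of Hoxb2 were at 26.2 and 26.2 RPKM and the 5 number-last ones at 2.54 to 16.4, without overlap, and in Ezh2 loss they were at 16.6 to 25.1 and 0.675 to 21.2, with overlap. The call of Hoxb2 was lost without JAK2V617F library 1 (adjusted p = 0.0793), JAK2V617F library 3 (0.0817) or Ezh2 loss library 3 (0.0699). The call of Hoxb6 was lost without control library 5 (adjusted p = 0.118), JAK2V617F library 1 (0.0777), JAK2V617F library 3 (0.148) or Ezh2 loss library 4 (0.0752). Hoxb5 also had a larger mean in number-first libraries, 19.6 ± 7.87 against 10.6 ± 6.8 RPKM, and did not pass, at 1.05 (SE 0.46, limma adjusted p = 0.159), except without JAK2V617F library 1 (1.48, adjusted p = 0.0482).

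The same split showed in the number of Hox genes per library. A number-first library had 14.9 ± 2.42 Hox genes above 0 (SD, n = 15, range 11 to 19) and a number-last library 11.4 ± 0.924 (n = 11, range 10 to 13). All genes above 0 also differed in number, at 11288 to 12543 in a number-first and 10326 to 11304 in a number-last library. By genotype the counts of Hox genes were 15.2 ± 3.19 for control, 12 ± 1.91 for JAK2V617F, 12.1 ± 1.35 for Ezh2 loss and 14.7 ± 2.63 for the double mutant. The 2 groups with the most number-first titles had the higher means. Summed HoxA RPKM was 98.8 ± 20.9 in number-first and 102.6 ± 31.2 in number-last libraries, summed HoxB 54.4 ± 12.3 and 27.7 ± 11.7, and summed HoxC 3.04 ± 2.9 and 0.204 ± 0.607. At least 1 of Hoxb6, Hoxb7, Hoxb8 and Hoxb9 was above 0 in 15 of 15 number-first and 4 of 11 number-last libraries, and a HoxC gene in 12 and 3. Hoxb8 and Hoxc4 had no read in any number-last library, and the share of all genes for which this holds was not counted. The median summed RPKM of HSC markers was 1359 in number-first and 942 in number-last libraries, and its part in the Hox values was not tested.

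**Figure D4:**
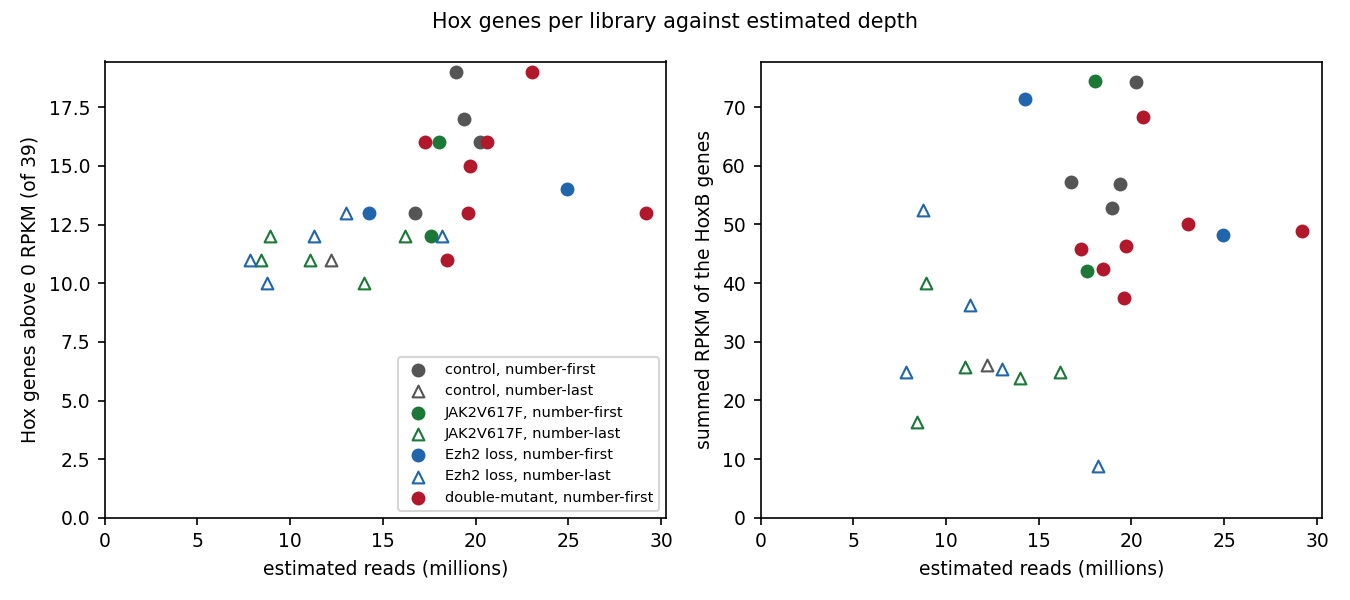
Number of Hox genes above 0 RPKM (left) and summed RPKM of the HoxB genes (right) in each of 26 libraries against estimated reads (M), with colour for genotype and filled circles for number-first and open triangles for number-last titles. Number-last libraries have 10 to 13 Hox genes and number-first libraries 11 to 19.

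The machinery around the Hox genes was expressed in these cells. Of 9 Hox cofactors 8 were on, of 23 Hox activators 20 and of 23 Polycomb subunits 23. Meis1, which binds DNA with Hoxa9, was at 153 ± 27.6 RPKM in control (SD, n = 5), 135 ± 40.3 in JAK2V617F, 124 ± 23.3 for Ezh2 loss and 137 ± 31.7 for the double mutant, and passed in no comparison.

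Among activators, Npm1 fell in the double mutant against JAK2V617F (-0.47, SE 0.12, limma adjusted p = 0.043) and was not called with the style covariate (-0.58, adjusted p = 0.153) or in 10 of 26 fits without 1 library, and 0 of the other 19 passed in any genotype comparison. The Kmt2a row of the table carries its older name Mll1 and had a mean of 7.21 RPKM. Of the Polycomb subunits, 0 of 23 passed with Ezh2 loss against control. Phf1, an accessory subunit of PRC2, rose in the double mutant against JAK2V617F, from 1.2 ± 1.3 to 10.6 ± 6.42 RPKM (2.34, SE 0.51, adjusted p = 0.0185), and stood at 1.65 (adjusted p = 0.4) with the style covariate. Its interaction also passed (3.06, SE 0.76, adjusted p = 0.0318), with 1.88 (adjusted p = 0.816) under that covariate and no call in 13 of 26 fits without 1 library. Between styles, Psip1, Ash1l, Ash2l and Kdm6b of the activators and Ezh1 of the Polycomb subunits passed. Psip1 was higher in number-first libraries, 57.2 ± 17.3 against 28.4 ± 10.7 RPKM (1.26, SE 0.27, adjusted p = 0.0017), while Kdm6b was lower, 9.39 ± 5.88 against 16.4 ± 5.04 (-1.54, SE 0.35, adjusted p = 0.0029). The calls of Ash1l, Ash2l and Ezh1 were lost in 3, 20 and 9 of 26 fits without 1 library.

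Outside the clusters, few developmental regulators were on. Of 65 other homeobox genes 6 were on (9.23%), 25 scattered and 34 silent. Those on were led by Hhex, a factor of early blood and endothelium, at a mean of 160.6 RPKM, and included Nkx2-3, Gbx2, Hlx and Isl1. Nkx2-3 was the only one that passed between genotypes, in the interaction (1.87, SE 0.48, limma adjusted p = 0.0387), where it stood at 0.84 (adjusted p = 0.866) with the style covariate and was not called in 18 of 26 fits without 1 library. Its means were 50.7 ± 10.7 RPKM in number-first and 25 ± 12.6 in number-last libraries (0.83, SE 0.27, adjusted p = 0.0469, not called in 18 of 26 fits without 1 library). Of 44 Polycomb target developmental regulators 4 were on (9.09%), namely Hmga2, Bmp4, Twist1 and Lin28b, with 22 scattered and 18 silent, and 0 of these 4 passed in any comparison. Reads only in libraries with Ezh2 loss were found for 12 of the 65 (18.5%) and 9 of the 44 (20.5%), against 8.01% of all genes, and only in libraries with intact Ezh2 for 6 (9.23%) and 7 (15.9%), against 3.99%. With 38.5% on, the Hox clusters lay between these lists and all genes. Of 18 noncoding transcripts listed for the clusters 10 had a row, 2 of them on (Mir196b and Hoxaas3), 3 scattered and 5 silent.

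**Figure D5:**
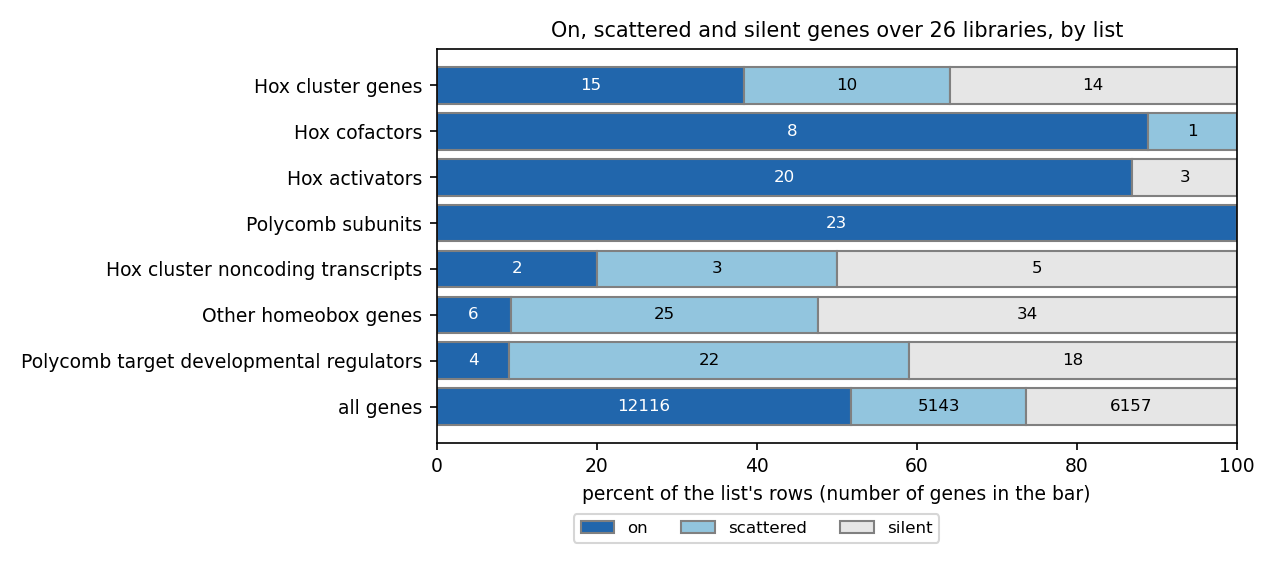
Percent of the rows of each list that were on, scattered or silent over the 26 libraries, with the number of genes in the bar, for Hox genes, 6 related lists and all genes. The Hox genes are split 15, 10 and 14, while the Polycomb subunits are all on.

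Neighbouring transcripts may limit the values of some members. The annotation behind the counts was not GENCODE M21: the steps between RPKM values gave Hoxa9 a length of 2272 bases, where its GENCODE exons cover 5580. In GENCODE M21, exons of 16 of the 39 genes overlap those of another gene, 9 on the same strand and 10 on the other strand, and 23 have none. The share of exonic bases was 52.9% for Hoxb3 and 27.3% for Hoxb2, both with the antisense Hoxb3os, 27.1% for Hoxa3 and 20.4% for Hoxa7. Hoxa5, Hoxa10, Hoxb4, Hoxb6, Hoxb9 and Hoxc6 share none, and Hoxa9 shares 1.52%. Whether the counting used strand is not given in the sources used here, so reads of Hoxb3, Hoxb2, Hoxa3 and Hoxa7 cannot be told apart from those of the overlapping transcripts.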

How the data were processed

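RNA of 26 libraries (5 control, 7 JAK2V617F, 7 Ezh2 loss, 7 double-mutant) was sequenced after Smart-Seq2 amplification. The authors deposited 1 table of RPKM per gene and library. It was made with STAR 2.4.2a, SAMtools 0.1.19 and Subread 1.5.0 on mm10 (GRCm38), per the submitters' processing notes. The gene annotation and the use of strand were not stated in any source used here. All columns matched a library by title (0 unmatched), and groups came from the genotype labels.

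Differences were tested on log2(RPKM + 1) with limma 3.58.1 (R 4.3.3; trend and robust variance, two-sided), with 1 mean per group over all 26 libraries, on the 12116 of 23416 genes with RPKM of 1 or more in 5 or more libraries. P-values were adjusted by Benjamini-Hochberg over all of these genes and called under 0.05. The double-mutant and JAK2V617F comparisons share libraries with one another. Libraries above 0 were compared with Fisher's exact test (SciPy 1.17.1). Tables were handled in Python 3.11.15 with pandas 2.3.3 and drawn with matplotlib 3.10.9. The limma and Fisher steps were tested on simulated data. Reads were recovered from RPKM steps and used for depth and detection limits only.

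The Hox genes and all gene lists (234 of 243 listed genes had a row) were chosen with earlier results of these data known. Values by library are given for Hox genes that are on or reach an unadjusted p under 0.05, and from other lists for genes that passed a test; results of some genes are not reported here. Alternatives were other pseudocounts (0.1 and 5), no filter on low values, TMM factors, TPM scaling, array weights, naming style as a covariate, number-first libraries alone, only the groups compared, shared title numbers as a block (limma duplicateCorrelation), and leaving out each library.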

Additional observations from a re-analysis of the deposited data

Results flagged for a closer look

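In 12 of 67 sets of 4 to 10 values tested, 1 library stood apart: its gap to the nearest other library took up more of the group's range than Dixon's 95% limit allows. For normally distributed values chance gives this in about 1 of 20 sets. Some of these sets hold zeros, and a set with only 1 value above 0 is always flagged. That rate therefore does not apply to the 12 of 67. In HoxA these were Hoxa3 in control (7.05 RPKM in library 4, the next at 2.66), Hoxa4 in JAK2V617F (5.51 in library 5, the next at 1.47), Hoxa5 in the double mutant (43.3 in library 6, the next at 9.66), and Hoxa6 in control (3.25 in library 3, the next at 0.812) and in JAK2V617F (4.81 in library 6, the next at 0.952). In HoxB they were Hoxb2 in the double mutant (29 in library 3, the next at 17.4), Hoxb6 in JAK2V617F (11 in library 3, the next at 4.22), and Hoxb9 in control (2.89 in library 4, the others at 0), in JAK2V617F (4.97 in library 3, the others at 0) and in Ezh2 loss (1.15 in library 2, the next at 0.312). JAK2V617F library 3, a number-first library, also had the most Hox genes of its group above 0 (16, the next at 12). Double-mutant library 7 had the lowest summed Hox RPKM of its group (108.2, the next at 143). No cause was tested for any of these values.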

How the results depend on the processing

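Of the values recomputed, 327 counts and means per library stayed the same as or close to the main value. Close includes 20 silent genes in number-last libraries alone against 14. For single genes 274 values kept their sign and call, but not always their size. The Hoxb6 interaction, 2.34 in the main fit and 0.05 with the style covariate, is among these. Further, 9 counts or means moved, 3 single-gene values passed the threshold anew and 8 no longer passed, and 0 called values reversed. The cause was not tested. The count of Hox genes called between naming styles, 2, was 1 with no filter on low values (Hoxb6 at 1.86, adjusted p = 0.0551) and 0 to 2 when 1 library was left out (0 without JAK2V617F library 3, and 1 without control library 5, JAK2V617F library 1 or Ezh2 loss library 3 or 4). That for the double mutant against JAK2V617F, 0, ran from 0 to 1 (1 without double-mutant library 6 or JAK2V617F library 3). The other genotype counts stayed at 0. Signs of values that passed no test were less stable: the style covariate changed 27 of 105, number-first libraries alone 32 of 105, and array weights 12 of 120. Hox genes per Ezh2 loss library came to 10 at an RPKM of 1 or more, against 12.1 above 0. Under limits added after the data were seen, 18 Hox genes were on at 0.1 RPKM and 10 at 5 RPKM, and 14 were silent in number-first and 20 in number-last libraries alone. Title numbers recur between groups, which no label calls a pairing. JAK2V617F and Ezh2 loss share 4 of them among number-last titles, and the deviations of these pairs from the number-last mean of their group correlated, over genes, at -0.0852 to 0.0282, against -0.0831 to 0.108 for libraries of other numbers, so they were taken as shared numbers only. With the shared number as a replicate block, in the same or in either style (added after the data were seen), the counts of Hox genes called were 0 between genotypes and 2 between styles. Low depth in number-last libraries limits what can be seen of genes near 0, and its part in their lower Hox counts was not tested. For Hoxb6 to Hoxb9, Hoxc4 and Hoxc6, number-first libraries had 46 values above 0. Of these, 43 exceeded the RPKM of 3 reads in the shallowest library. Number-last libraries had 7 values above 0 for these genes. All 6 genes had reads in more number-first (of 15) than number-last libraries (of 11), so these counts describe that split and do not test depth. Hoxa6, outside this set, was above 0 in 6 of 15 and 4 of 11.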
